A study of Orbicella faveolata with 48 samples.

Results

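The 100 most abundant coral transcripts in fragments of the mountainous star coral Orbicella faveolata supplied 15.5% of all coral counts on average (SD 1.02 percentage points, 48 libraries), although they were 100 of the 87440 assembled features in the coral table, or 0.114%. They were chosen by their level: counts were divided by the coral total of each library to give CPM, counts scaled to 1000000 in all, and the features with the highest mean CPM over all 48 libraries were taken. That level is therefore a description of the set and not a finding. The files do not pair feature identifiers with gene names, and no reference was used here, so the transcripts are called by their abundance rank, 1 to 100, and no function is given to any of them. For the same reason the labelled tissue could not be checked against marker genes.

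Fragments came from offshore and inshore reefs of the Florida Keys, and the study's title names the difference in heat tolerance between these sites as its subject. After 5 days, offshore heated fragments (n = 3) and inshore heated fragments (n = 9) had been at 33 °C, against 30 °C for offshore controls (n = 3) and inshore controls (n = 9). After 31 days, the heated fragments (3 offshore, 9 inshore) were those of 32 °C and the controls (3 offshore, 9 inshore) again those of 30 °C, so that temperature and duration changed together between both times. Libraries are named here by colony tag. Each also had 1 of 7 genotype labels, In1 to In4 inshore and O1, O2 and O5 offshore. A genotype label does not follow a tag between the 2 times: tag C2, for example, carried O2 at 5 days and O1 at 31 days. Several fragments shared a genotype label within a group, so p-values over fragments measure partly the spread among fragments of 1 label.

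Reef-building corals house single-celled photosynthetic algae in their cells and can lose them in warm water, which is known as bleaching. In animal tissues a small part of the expressed genes supplies much of the messenger RNA, commonly genes for ribosomal proteins, translation factors and the cytoskeleton, or for products secreted in bulk. Such transcripts set much of a library's composition, so a change in a few of them moves every value that is given in CPM. In bulk tissue, fewer cells of a type and less RNA per cell cannot be told apart. Longer transcripts also collect more counts, and transcript lengths were not used here, so a rank orders counts and not molecules.

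The coral table summed to between 4726663 and 6686881 counts in a library. The 95% Wilson interval of the members' share was at most 0.0347 percentage points to either side, which covers counting error only. Totals of a second table, which its name marks as that of the algal symbiont, ran from 67428 to 1360639. A coral column, headed BL6, was taken to be that of BLY6 among the 5-day controls. At 31 days 3 libraries stood apart from the other 45, the offshore control of tag C4 and the inshore heated fragments of tags B2 and B3. Their scaling factors over all 48 libraries (TMM, a factor that corrects a library's total for composition) were 0.674, 0.762 and 0.685, against 0.909 to 1.108 in the other 45. CPM values are given without this factor, and the tests used it. Results at 31 days that moved without these 3 are given both ways. Without them label In2 had 0 heated and label O2 had 0 control libraries at 31 days, so the heat response there rested on the other 5 labels.

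Counts were concentrated in the first few ranks. The most abundant transcript alone held 1.29% of coral counts (SD 0.232, lowest 0.877%, highest 1.84%). The first 5 held 3.21%, the first 10 held 4.95%, the first 50 held 10.98% and all 100 held 15.5% (lowest 13.1%, highest 18.02%). The first 200 features held 21.4% and the first 1000 held 41.1%. After the step between ranks 1 and 2, at mean levels of 12862 and 5359 CPM, levels declined gradually. Just inside the limit, ranks 98, 99 and 100 averaged 791, 785 and 777 CPM, and just outside it the next 3 features averaged 768, 757 and 751 CPM, so the limit fell in no gap.

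**Figure D1:**
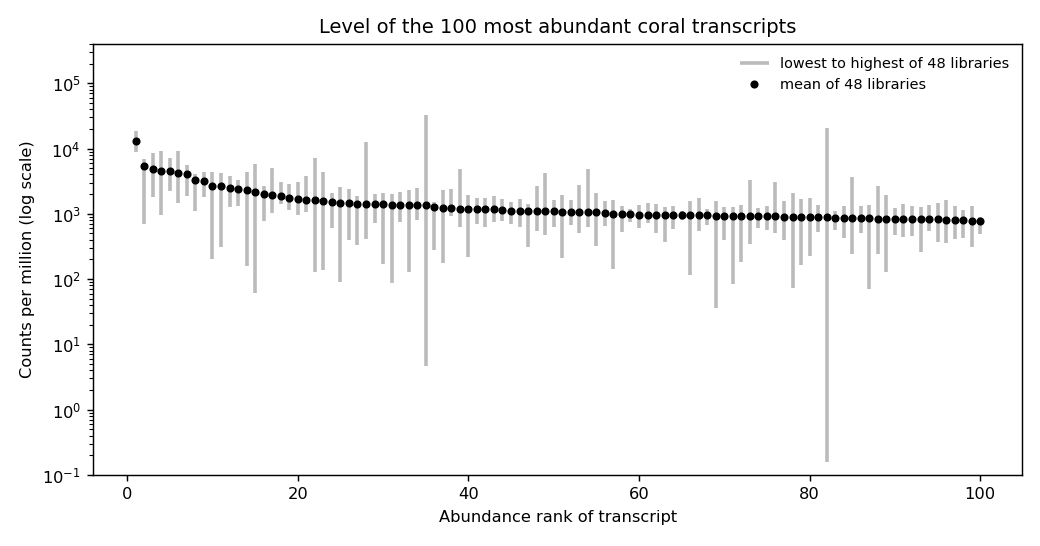
Level of each of the 100 transcripts in CPM (log axis) by abundance rank. Points are means of 48 libraries and grey bars run from the lowest to the highest library. Means decline from 12862 CPM at rank 1 to 777 CPM at rank 100, and the bars of ranks 35 and 82 are the longest of the 100.

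The first 10 transcripts were the following. Rank 1 ranged from 8769 to 18355 CPM over the 48 libraries, with a coefficient of variation (CV) of 18.1%, and was among the first 3 features of each library. Rank 2 ranged from 697 to 7013 CPM. Its lowest value outside the 3 libraries that stood apart was 4405 CPM, and its CV of 24.6% was 12.6% without them. Ranks 3, 4, 5 and 6 averaged 4838, 4522, 4486 and 4229 CPM, with CVs of 30.1%, 41.4%, 26.4% and 34.8%. Ranks 7, 8 and 9 averaged 4037, 3295 and 3210 CPM and were steadier, each with a CV under 20%. Rank 10 averaged 2656 CPM and ranged from 202 to 4410 CPM. Its lowest level was 1458 CPM once the 3 libraries were left out.

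Most of the set was shared by most libraries. Of the 100 transcripts, 18 were among the top 100 of every library, 62 were so in 40 or more of the 48 libraries, and 7 were in fewer than 24. In the means of the 8 groups, 58 were in the top 100 of every group. The top 100 of a single library held a median of 84 of the set. It held 33 in the C4 control, 43 in heated B2 and 42 in heated B3 at 31 days, and 76 or more in each of the other 45. Those 3 libraries also had a more concentrated top: their own first 100 features held 25.2% to 27.4% of coral counts, against 13.9% to 18.8% in the other 45.

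The median CV was 24.4% over the 100 and 30.8% over the 18732 features with a mean of 5 CPM or more. A CV under 20% was found in 24 of 100 members and in 21.2% of those features, and one over 50% in 15 members and 22.8% of them. These are descriptions and were not tested. The steadiest were rank 65 (798 to 1120 CPM, CV 7.19%), rank 59 (742 to 1169 CPM, CV 8.43%) and rank 83 (568.2 to 1103 CPM, CV 10.4%). Rank 100 followed with a CV of 10.9%. Each of these 4 stayed within a 2-fold range over all 48 libraries.

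At the other end, a few transcripts were members through a few libraries. Rank 82 had a median of 20.2 CPM and a mean of 877 CPM. It reached 20338 CPM in the heated fragment of A2 at 31 days, 6809 CPM in the control of B4 and 4919 CPM in the control of D6 at 5 days, and 0.159 CPM in the heated fragment of C5 at 31 days. It was in the top 100 of 6 libraries. Rank 35 had a median of 29.5 CPM and a mean of 1341 CPM, reached 32704 CPM in heated B2, 11675 CPM in heated B3 and 6907 CPM in the C4 control at 31 days, and was in the top 100 of 7 libraries. Without those 3 libraries its mean was 291 CPM, and it was the 1 member that left the top 100. Both were high together in A2 (heated, 31 days), B4 and D6 (controls, 5 days) and C5 (heated, 5 days). There rank 35 had 5107, 2231, 2443 and 1020 CPM and rank 82 had 20338, 6809, 4919 and 735 CPM. In heated B2 and B3 at 31 days, where rank 35 was highest, rank 82 had no more than 169 CPM. Rank 15, next after ranks 82 and 35 by its highest over its lowest level, had a median of 1805 CPM and ranged from 61 CPM in heated B2 to 5831 CPM in the heated fragment of C2 at 5 days. Without the 3 libraries its lowest level was 928 CPM.

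**Figure D2:**
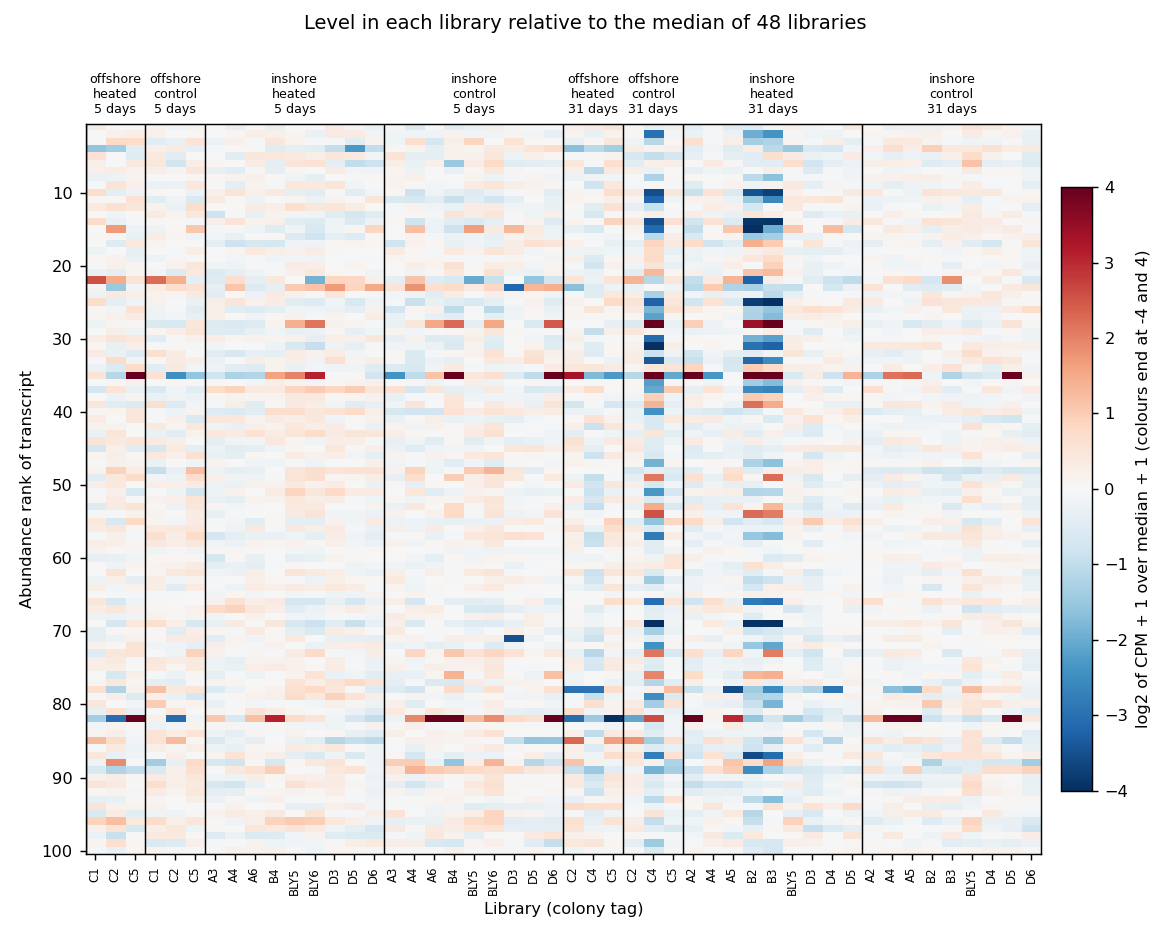
Level of the 100 transcripts (rows, by rank) in each of the 48 libraries (columns, by group and colony tag), as log2 of CPM + 1 over the transcript's median, with colours that end at -4 and 4. The C4 control and heated B2 and B3 at 31 days form 3 striped columns, and the rows of ranks 35 and 82 are dark in scattered libraries.

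In the C4 control and in heated B2 and B3, 26 members were at least 2-fold below their median over the other libraries in each of the 3, and 6 were at least 2-fold above it in each. No other library had more than 9 members 2-fold below or more than 6 above. At least 4-fold lower in each of the 3 were ranks 10, 14, 25, 31, 33, 37, 66, 69 and 87. Rank 69, for instance, had 35.7, 63.5 and 35.7 CPM in C4, B2 and B3, against 534 to 1549 CPM in the other 45 libraries. At least 4-fold higher were ranks 28, 35 and 54. Rank 28 had 12632, 6987 and 10156 CPM in them, against 417 to 3520 CPM in the others, and rank 54 had 4846, 3956 and 3436 CPM, against 626 to 1428 CPM. For rank 54 the 3 libraries lay wholly above the other 45, and so they did for ranks 28 and 35 (6907, 32704 and 11675 CPM, against 4.60 to 5107 CPM). In all, 48 members had their lowest level of the 48 libraries in one of these 3, and 16 their highest. The 3 belong to 2 habitats, both arms and 2 genotype labels (O2 and In2), and their members' shares of 13.7%, 15.7% and 15.5% lay within the range of the other libraries.

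Groups of members also rose and fell together from library to library. Over the 4950 pairs of members the median Spearman correlation of levels across the 48 libraries was 0.07, and 69 pairs had a correlation over 0.9. Linking such pairs gave 5 blocks, described here without a test because levels that are shares of 1 total and fragments of 1 colony are not independent. The largest held 13 members (ranks 42, 46, 50, 52, 56, 58, 62, 74, 75, 84, 86, 90 and 92) with correlations of 0.79 to 0.97. Together these 13 held 0.751% to 1.84% of coral counts, the least in heated C4 and the most in the control of BLY5, both at 31 days. Each of the 13 averaged between 836 and 1173 CPM. A second block joined ranks 10, 14, 25, 66 and 87 (0.94 to 0.99), which summed to 0.0670% of counts in heated B3 and to 1.43% in heated C5 at 31 days. Without the 3 libraries the lowest sum of these 5 was 0.478%, and the correlations were 0.93 to 0.99. The other blocks joined ranks 49, 53 and 73 (0.94 to 0.97), ranks 27 and 72 (0.90) and ranks 51 and 79 (0.94). All but the pair of ranks 27 and 72 were found again over 45 libraries. Ranks 51 and 79 carry identifiers of 1 assembly component, as do ranks 22 and 85, and near-identical sequences can share reads in estimated counts, so the levels within such a pair are uncertain.

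The 13 members of the largest block summed to 1.39% ± 0.152 of coral counts in offshore heated fragments and 1.58% ± 0.110 in offshore controls at 5 days (SD, n = 3 each). Inshore the sums were 1.28% ± 0.203 under heat and 1.35% ± 0.178 in controls (n = 9 each). At 31 days they were 1.31% ± 0.487 in offshore heated and 1.18% ± 0.312 in offshore control fragments, and 1.09% ± 0.146 in inshore heated and 1.22% ± 0.256 in inshore control fragments. The inshore heated fragments summed to 1.09% ± 0.161 (n = 7) and the offshore controls to 1.17% and 1.49% once the 3 libraries were left out. In each of the 4 pairs the difference was smaller than the SDs of its groups combined.

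The members' variation was split by genotype label, by habitat and by arm. Each label belongs to 1 habitat, so the part between habitats lies within the part between labels. Of a member's squared deviations of log2 CPM at 5 days, a median of 43.3% lay between genotype labels, 4.9% between habitats and 6.8% between the arms, against 45.8%, 3.7% and 4.9% for all features of at least 5 CPM. At 31 days the medians for labels, habitats and arms were 42.7%, 1.2% and 3.2% for members and 43.0%, 2.6% and 2.5% for all such features. Without the 3 libraries they were 48.3%, 5.5% and 8.7% for members, against 50.5%, 5.0% and 5.0%. These shares are descriptions and cannot be ranked as they stand. Of the degrees of freedom of 24 libraries, 7 labels take 26.1% and 2 arms or 2 habitats take 4.35% (30.0% and 5.0% of 21 libraries). A share of the degrees of freedom is an average and the values above are medians over features, so neither can be set against the other.

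The share of coral counts held by the 100 transcripts had group means of 15.0% to 16.5%. At 5 days it was 16.5% ± 0.280 in offshore heated and 16.3% ± 0.907 in offshore control fragments (SD, n = 3 each). Inshore the share was then 15.3% ± 0.880 in heated and 15.6% ± 0.844 in control fragments (n = 9 each), both means below both offshore means. At 31 days it was 15.5% ± 2.25 in offshore heated, 15.0% ± 1.16 in offshore control, 15.2% ± 0.873 in inshore heated and 15.7% ± 1.08 in inshore control fragments. The inshore heated fragments held 15.0% ± 0.969 (n = 7) and the offshore controls 15.5% and 15.8% once the 3 libraries were left out. Compared within genotype labels at 5 days, heat minus control was negative in 4 of 4 inshore labels (-0.10, -0.70, -0.26 and -0.33 points in In1 to In4). Offshore it was 0.03 points in O1, 1.48 in O2 and -0.76 in O5. At 31 days the difference was negative in 3 of 4 inshore labels (mean -0.74 points, SD 0.963) and in 1 of 3 offshore labels (mean 0.49, SD 1.36). The differences of In2 (-0.01) and O2 (-0.61) rested on the libraries that stood apart. The share was not tested, since the set was chosen on it.

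**Figure D3:**
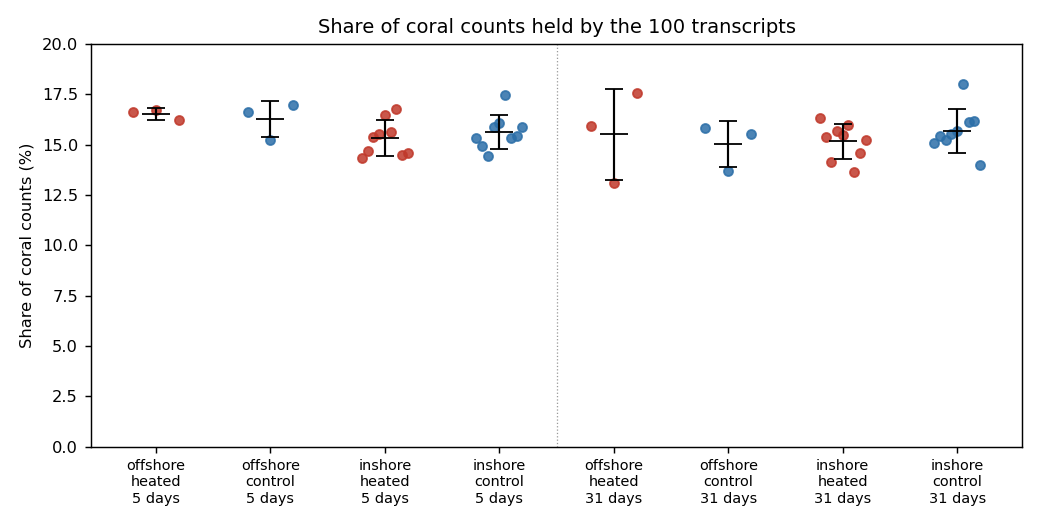
Share of coral counts (%) held by the 100 transcripts in each of the 48 libraries, by habitat, arm and time. Points are libraries, the long bar is the group mean and the whiskers are 1 SD. All libraries lie between 13.1% and 18.02%, and the heated and control groups overlap in both habitats at both times.

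The selection used the mean over all libraries and not the contrast of heat with control, so changes of single members were tested, with edgeR's quasi-likelihood F test in a model of the 24 libraries of each time and Benjamini-Hochberg adjustment over all features that passed its filter on low counts. All 100 members passed that filter. For members that were chosen through a few libraries, such as ranks 35 and 82, selection and test are not independent. Called means an adjusted p under 0.05, and changes are log2 of heated over control. At 5 days inshore, 16 of 100 members were called, 9 higher and 7 lower under heat, against 10.1% of the 34540 features tested (4.8% higher, 5.3% lower). Members were measured more precisely than most features, with a median standard error of 0.10 against 0.20, while their median change in either direction was smaller, 0.17 against 0.21. The 16 calls were thus mostly small changes, and 1 of them reached 2-fold. There were 10 calls without genotype label In1, 2 without In3 and 3 with counts summed per label. The share of all features called in those 3 fits is not given here.

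The transcript of rank 11 (OFAVBQ_DN222214_c0_g2_i2) rose most clearly at 5 days. Inshore it had 2408, 2931 and 3919 CPM (lowest, median, highest of 9) under heat, against 1507, 2041 and 2842 CPM in controls. Offshore it had 2946, 2920 and 4208 CPM in heated fragments of C1, C2 and C5, against 2087, 2560 and 1895 CPM in their controls. The inshore ranges overlapped and the offshore ones did not, and it was higher in 7 of 7 genotype labels. Its log2 change was 0.56 inshore (SE 0.09, edgeR adjusted p = 0.00035) and 0.62 offshore (SE 0.16, edgeR adjusted p = 0.0447). The offshore call was made in 3 of 17 alternatives (DESeq2, RLE size factors and no filter on low counts). It was lost with colony tags as a replicate block (edgeR adjusted p = 0.0748) and in each fit that left out 1 offshore library or 1 inshore genotype label, where the edgeR adjusted p ran between 0.0516 and 0.348. At 31 days heated and control medians inshore were 3157 and 2728 CPM, with a change of -0.11 (SE 0.26, edgeR adjusted p = 0.852), and heated B2 and B3 and the C4 control held its lowest values. Without those 3 libraries the change was 0.28 (SE 0.10, edgeR adjusted p = 0.14).

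Rank 67 (OFAVBQ_DN222888_c3_g3_i2) had 696, 1141 and 1736 CPM in inshore heated fragments at 5 days, against 597, 796 and 1146 CPM in controls. The ranges overlapped widely, but within labels it was higher in 7 of 7 (6 of 7 with TMM factors). The change was 0.41 inshore (SE 0.07, edgeR adjusted p = 0.00109) and 0.22 offshore (SE 0.13, edgeR adjusted p = 0.42). Rank 37 rose further, to 1471, 2002 and 2283 CPM in inshore heated fragments, against 694, 925 and 1689 CPM in controls. Its change was 0.82 inshore (SE 0.17, edgeR adjusted p = 0.00318), higher in 4 of 4 labels. Without In3 neither was called (edgeR adjusted p = 0.0643 for rank 67 and 0.127 for rank 37). Offshore the change of rank 37 was 0.24 (SE 0.29), with 699, 1605 and 905 CPM in heated C1, C2 and C5, against 744, 1018 and 829.3 CPM in their controls.

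The other 6 that rose inshore at 5 days were ranks 77, 72, 41, 96, 27 and 79, with changes between 0.26 (rank 27) and 0.42 (ranks 77 and 79). Ranks 27 and 72 form 1 of the co-varying blocks. Their summed share was 0.290% ± 0.0302 in offshore heated and 0.215% ± 0.0136 in offshore control fragments at 5 days (SD, n = 3 each), and 0.264% ± 0.0262 in inshore heated and 0.215% ± 0.0235 in inshore control fragments (n = 9 each). The offshore changes of ranks 27 and 72, at 0.42 and 0.46, came with edgeR adjusted p = 0.0674 and 0.0562. Rank 79 was called while rank 51, from the same assembly component and block, was called by DESeq2 (0.40, adjusted p = 0.0468) and not by edgeR.

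Rank 13 (OFAVBQ_DN222629_c2_g2_i3) fell most clearly. It had 1330, 1904 and 2590 CPM in inshore heated fragments at 5 days, against 2065, 2504 and 3345 CPM in controls. Offshore it had 2336, 2092 and 2309 CPM in heated C1, C2 and C5, against 2951, 2578 and 3168 CPM in their controls. Inshore the ranges overlapped, offshore all heated values lay below all control values, and it was lower in 7 of 7 labels. The change was -0.49 inshore (SE 0.09, edgeR adjusted p = 0.00142) and -0.36 offshore (SE 0.16, edgeR adjusted p = 0.268). Without In3 the inshore change was -0.45 (edgeR adjusted p = 0.0514).

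Rank 57 (OFAVBQ_DN218119_c0_g2_i2) had 617, 809 and 1203 CPM in inshore heated fragments, against 818, 1026 and 1545 CPM in controls, a change of -0.49 (SE 0.12, edgeR adjusted p = 0.0109) with 7 of 7 labels lower (6 of 7 with TMM factors). Its highest heated value, that of D3, stood apart from the other 8. Rank 98 had 532, 553 and 860 CPM in inshore heated fragments, against 604, 801 and 1129 CPM in controls. It changed by -0.50 (SE 0.14, edgeR adjusted p = 0.0206), and In2 went the other way from the remaining labels inshore. The call of rank 57 was lost without In2 or In3 (edgeR adjusted p = 0.0734 and 0.0506), and that of rank 98 without In1 or In3 (edgeR adjusted p = 0.116 and 0.349) and with colony tags as a replicate block (edgeR adjusted p = 0.0516). With counts summed per label neither was called (edgeR adjusted p = 0.16 for rank 57 and 0.318 for rank 98).

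The other members that fell were ranks 29 (-0.37), 4 (-0.82), 68 (-0.23) and 82 (-3.93, SE 1.16, edgeR adjusted p = 0.0331). For rank 82 the inshore medians were 29.2 CPM under heat and 78.1 CPM in controls. Its control mean of 1395 CPM rested on B4 and D6, and DESeq2 gave it no p-value. Those libraries were also among the few through which rank 82 was a member, so its call is not independent of the selection.

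Offshore at 5 days, 1 of 100 members was called, rank 11, higher under heat, against 2.56% of features tested (1.18% higher). Unadjusted p-values were under 0.05 for 18 members and for 16.5% of features. DESeq2 called 7 members there, against 4.7% of features: ranks 11, 27, 47, 59, 72 and 77 higher and rank 89 lower. Of the 16 members called inshore, 15 had the same sign offshore, with 9 inshore libraries an arm and 3 offshore. The exception was rank 82. The same count over all features called inshore is not given here, so this agreement cannot be read as particular to the members. In the test of the difference between both habitats' responses, 0 members were called by edgeR, against 0.0898% of features, and DESeq2 also called 0. Unadjusted p-values were under 0.05 for 2 members and for 5.29% of features.

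**Figure D4:**
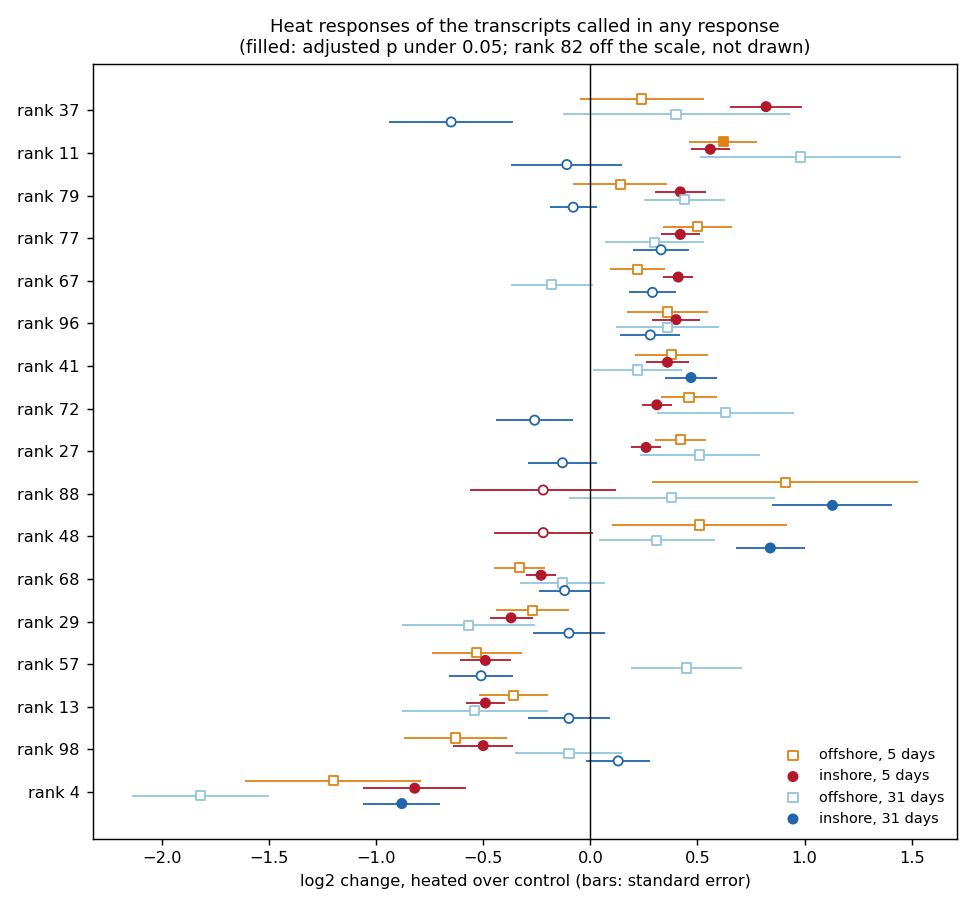
Log2 change, heated over control, with its standard error, of the transcripts called in any heat response, in offshore (squares) and inshore (circles) fragments at 5 and 31 days. Filled symbols have an adjusted p under 0.05, and rank 82 is off the scale. Ranks 4 and 41 are filled inshore at both times.

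At 31 days inshore, 4 of 100 members were called, 3 higher and 1 lower under heat, against 2.37% of the 35219 features tested (1.11% higher, 1.26% lower). Unadjusted p-values were under 0.05 for 24 members and for 19.4% of features. DESeq2 called 13 members (6 higher, 7 lower), against 6.12% of features. With colony tags as a replicate block 0 were called, and without genotype label In3 also 0. There was 1 call without In1, and there were 2 without In2 or In4. Without the 3 libraries that stood apart there were 6, 2 higher (ranks 48 and 88) and 4 lower (ranks 4, 18, 31 and 80). For the fits with the tag block or with labels or libraries left out, the share of all features called is not given here. Their counts cannot be set against the 2.37%.

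Rank 48 had the smallest p. It had 727, 1090 and 1538 CPM in inshore heated fragments (lowest, median, highest of 9), against 545, 627 and 730 CPM in controls. The ranges met only at the edge, and it was higher in 7 of 7 labels (6 of 7 with TMM factors). Offshore it had 1027, 1021 and 1033 CPM in heated C2, C4 and C5, against 624, 790 and 722 CPM in their controls. These did not overlap in CPM, but with TMM factors the values were 984, 922 and 1027 in heated fragments, against 592, 1172 and 679 in controls, and the C4 control lay above all 3 heated ones. The change was 0.84 inshore (SE 0.16, edgeR adjusted p = 0.00905) and 0.31 offshore (SE 0.27, edgeR adjusted p = 0.732). At 5 days the inshore change of rank 48 was -0.22 (SE 0.23, edgeR adjusted p = 0.636), with 776, 1431 and 1674 CPM under heat and 743, 1153 and 2646 CPM in controls. Without In3 the 31-day change was 0.92 (edgeR adjusted p = 0.146), and with colony tags as a replicate block 0.79 (edgeR adjusted p = 0.0802). It was 0.71 inshore (SE 0.12, edgeR adjusted p = 0.00492) and 0.66 offshore (SE 0.22, edgeR adjusted p = 0.404) without the 3 libraries.

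Rank 88 had 640, 818 and 2243 CPM in inshore heated fragments at 31 days, against 280, 522 and 708 CPM in controls, a change of 1.13 (SE 0.28, edgeR adjusted p = 0.0384) with 4 of 4 labels higher. Without the 3 libraries its change was 0.74 (edgeR adjusted p = 0.0325). Rank 41 had 776, 1303 and 1730 CPM under heat, against 704, 986 and 1161 CPM in controls (0.47, SE 0.12, edgeR adjusted p = 0.0455). It had also risen inshore at 5 days (0.36, SE 0.10, edgeR adjusted p = 0.0202). That 5-day call was lost with counts summed per label (edgeR adjusted p = 0.254). The same happened in each fit that left out 1 inshore label (edgeR adjusted p between 0.0674 and 0.164). The 31-day call of rank 41 was lost without the 3 libraries, and those of ranks 41 and 88 in each fit that left out 1 of the labels In1, In2, In3 and In4. That of rank 41 was also lost without offshore C2 of either arm (edgeR adjusted p = 0.0509 without the heated and 0.0513 without the control fragment).

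Rank 4 had lower levels under heat in each of the 4 pairs of groups. Offshore at 5 days it had 1584, 1800 and 3574 CPM in heated C1, C2 and C5, against 5396, 5970 and 3784 CPM in their controls. Inshore it then had 956, 3524 and 4846 CPM (lowest, median, highest) under heat, against 3710, 5321 and 7822 CPM in controls. Inshore the ranges overlapped, and offshore they did not.

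At 31 days rank 4 had 1475, 2263 and 1860 CPM in offshore heated fragments of C2, C4 and C5, against 5833, 5234 and 5502 CPM in their controls. Inshore it had 1706, 3411 and 5856 CPM under heat, against 5467, 6257 and 9264 CPM in controls. In CPM the offshore groups lay far apart and the inshore ranges overlapped at the edge. With TMM factors the offshore ranges still did not overlap. Inshore, however, the highest heated value was then 7688, above the control median of 5941 and the control lowest of 5228. Rank 4 was lower in 6 of 7 labels at 5 days, all but In1 (0.04), or in 7 of 7 with TMM factors, and in 7 of 7 at 31 days.

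The change of rank 4 was -0.82 (SE 0.24, edgeR adjusted p = 0.0293) inshore and -1.20 (SE 0.41, edgeR adjusted p = 0.13) offshore at 5 days. The inshore call at 5 days was lost with colony tags as a replicate block (edgeR adjusted p = 0.0657), with no genotype term (0.0563), with counts summed per label (0.271) and without In2 (0.0762) or In3, where the change was -0.34 (edgeR adjusted p = 0.411). At 31 days it was -0.88 (SE 0.18, edgeR adjusted p = 0.016) inshore and -1.82 (SE 0.32, edgeR adjusted p = 0.0578) offshore. Without the 3 libraries the 31-day fall was called in both habitats (edgeR adjusted p = 0.00357 inshore; -1.73 and edgeR adjusted p = 0.0442 offshore). Inshore at 31 days the call was lost without In1 or In3 (edgeR adjusted p = 0.11 and 0.211) and with colony tags as a replicate block (edgeR adjusted p = 0.0722). The difference between both habitats' responses was -0.38 (edgeR adjusted p = 0.992) at 5 days and -0.94 (SE 0.36, edgeR adjusted p = 0.327) at 31 days.

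**Figure D5:**
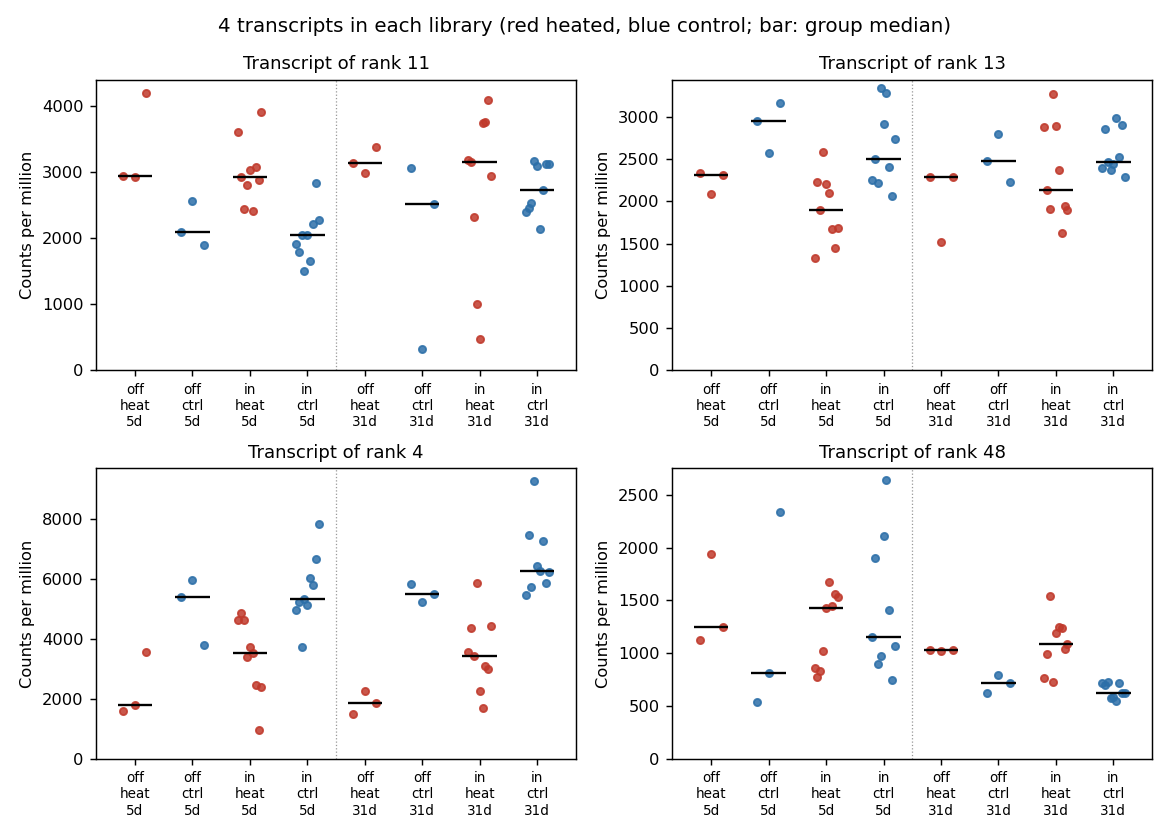
Levels in CPM of the transcripts of ranks 11, 13, 4 and 48 in each library, by habitat, arm and time. Points are libraries (red heated, blue control) and bars are group medians. Rank 4 lies lower in heated than in control groups at both times, rank 11 higher and rank 13 lower at 5 days, and rank 48 higher at 31 days.

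The library's algal content moved with heat beside rank 4. The second table's share of all counts was 3.52% ± 4.29 in offshore heated and 17.2% ± 2.65 in offshore control fragments at 5 days (SD, n = 3 each), and 11.3% ± 3.13 in inshore heated and 17.3% ± 2.46 in inshore control fragments (n = 9 each). At 31 days it was 2.68% ± 1.69 offshore under heat and 13.96% ± 2.49 in offshore controls, and 7.46% ± 3.40 inshore under heat and 15.1% ± 2.45 in inshore controls. Among the heated libraries alone, the level of rank 4 and the ratio of second-table to coral counts had Spearman correlations of 0.78 at 5 days and 0.83 at 31 days (12 libraries each). Among the control libraries they were 0.29 and 0.38 (12 each). Over both times together they were 0.75 in heated and 0.03 in control libraries (24 each). These are descriptions of the member with the highest such correlation of the 100 over all 48 libraries, and the libraries share colonies, and the part of algal content in the level of rank 4 was not tested. Over all 48 libraries rank 4 and rank 68 (0.74 and 0.64) were the 2 members at 0.6 or more and rank 94 (-0.63) the 1 member at -0.6 or less. Of the 18732 features of at least 5 CPM, 1.94% and 0.502% were so. These correlations pool both arms, which differ in algal share. Within heated and within control libraries rank 68 had 0.19 and 0.43, and rank 94 had -0.53 and -0.36. Over the 24 heated libraries 3 members were at 0.6 or more (ranks 4, 82 and 89), against 1.56% of those features. Over the 24 control libraries 4 members were, against 1.05%.

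Offshore at 31 days, 0 members were called by edgeR, against 0.0312% of features. Unadjusted p-values were under 0.05 for 11 members and for 9.89% of features. DESeq2, which called 0.86% of features, called rank 99 higher (0.72, adjusted p = 0.000632) and rank 4 lower (-1.83, adjusted p = 2.9e-05). In a DESeq2 fit without the 3 libraries, chosen after seeing the data, the change of rank 99 was 0.54 (adjusted p = 0.0601) and that of rank 4 -1.73 (adjusted p = 1.48e-05). The difference between both habitats' responses at 31 days gave 0 members by edgeR, against 0% of features, and 0 by DESeq2. Unadjusted p-values were under 0.05 for 17 members and for 13.7% of features.

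Ranks 4 and 41 were the members called inshore at both times, rank 4 alone without the 3 libraries and none with colony tags as a replicate block. Of the 16 called inshore at 5 days, 10 had the same sign inshore at 31 days, and 15 without the 3 libraries. Each of those responses was set against the controls of its own time. The 4 called at 31 days had the same sign offshore at that time, and 2 of them had the same sign inshore at 5 days. Of the 6 called without the 3 libraries, 5 had the same sign offshore and 4 inshore at 5 days. Such counts of signs over all called features are not given here.

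Between 31 and 5 days, counts were summed per genotype label and 7 labels stood at each time in each arm. No member was called by edgeR in any of the 4 comparisons, against 0% of features in each. In heated fragments unadjusted p-values were under 0.05 for 1 member offshore and 8 inshore, against 3.31% and 8.07% of features. In controls they were so for 8 members offshore and 2 inshore, against 11.5% and 3.01%. DESeq2 called rank 35 higher at 31 days in inshore heated fragments (6.60, adjusted p = 0.0345) and in offshore controls (7.56, adjusted p = 0.0243), the 2 groups that hold the libraries that stood apart, and 0 members in the other 2. Without those libraries DESeq2's changes of rank 35 were 2.69 (SE 1.72, no adjusted p given) and -1.06 (adjusted p = 0.932), and rank 35 was not called. With colony tags as a replicate block on single libraries, edgeR called rank 85 higher at 31 days in heated fragments, by 1.63 offshore (SE 0.16, adjusted p = 0.0229) and by 0.84 inshore (SE 0.11, adjusted p = 0.0361). That fit rested on the tags found at both times, 2 offshore (C2 and C5) and 4 inshore (A4, BLY5, D3 and D5), of which C2 and BLY5 carried another genotype label at each time. With counts summed per label the changes of rank 85 were 0.82 offshore (SE 0.51, edgeR adjusted p = 1.0) and 0.39 inshore (SE 0.44, edgeR adjusted p = 0.926). Its levels were 807, 2292 and 3611 CPM (lowest, median, highest) in offshore heated fragments at 31 days and 673, 1220 and 1771 CPM at 5 days. Inshore they were 272, 664 and 1137 CPM at 31 days and 328, 543 and 735 CPM at 5 days, and the ranges overlapped in both habitats.

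Between habitats, 3 offshore labels were set against 4 inshore labels within an arm and time. No member was called by edgeR in any of the 4 comparisons, against 0.0036% of features in controls at 31 days and 0% in the other 3. Heated fragments had 5 members at 5 days and 2 at 31 days at an unadjusted p under 0.05, against 5.79% and 4.61% of features. Controls had 8 and 3 such members, against 5.73% and 6.87% of features. DESeq2 called rank 89 lower offshore in heated fragments at 5 days (-1.34, adjusted p = 0.000275) and rank 82 lower offshore in controls at 5 days (-7.29, adjusted p = 0.00121). Of all features it called 0.748% and 0.58% in those comparisons, so 1 of 100 members was near that share. At 31 days DESeq2 called 0 members, against 0.73% of features in heated fragments and 0.327% in controls. The call of rank 82 drew on inshore controls through which it was a member, so that call is not independent of the selection. In heated fragments at 5 days rank 89 had 327, 374 and 493.4 CPM offshore and 673, 1001 and 1453 CPM (lowest, median, highest of 9) inshore, with no overlap, and edgeR's change was -1.34 (SE 0.26, edgeR adjusted p = 0.499). In controls the offshore range of 501 to 1160 CPM overlapped the inshore range of 942 to 1937 CPM. Offshore at 5 days, edgeR's alternative without a filter and DESeq2 both called rank 89 lower under heat (-1.06 and -1.01, adjusted p = 0.00493 and 0.0161).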

How the data were processed

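Per the labels, total RNA of coral tissue was sequenced as stranded mRNA. The authors deposited 2 tables of estimated counts by assembled transcript, for coral and, by its name, for the symbiont. Per the submitters' processing notes, Trimmomatic 0.36 and RSEM were used, while the tables are named for kallisto. Neither the reference nor the counting tool is given in the sources used here. Of the coral values 23.6% were not whole, and of the members' values 57.9%. The deposited estimated counts were rounded for all tests.

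CPM used each library's coral total. Tests ran in edgeR 4.0.16 (R 4.3.3) with TMM, filterByExpr and Benjamini-Hochberg adjustment at 0.05 over all features: for heat, the 24 libraries of a time with genotype label and a heat effect within habitat, and for time and habitat, counts summed per label. DESeq2 1.42.0, other scalings, no filter, other pairings and left-out libraries were alternatives. The members, the described ranks and the lists were chosen with earlier results of these data known. Described were ranks 1 to 10, the called members with the smallest p (up to 3 in each direction), the 3 widest and 3 steadiest, and those at the limit. Others that alternatives called are named because their counts were small.

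Colony tags recur between arms and times, and deviations of features of at least 5 CPM from their group means were correlated within a tag. Between arms the correlations were 0.49 to 0.77 at 5 days (12 pairs) and 0.33 to 0.76 at 31 days (11 pairs). Between times they were 0.50 to 0.69 in heated (6 pairs) and 0.31 to 0.69 in control libraries (6 pairs). Pairs of different tags are not given beside them. The main heat tests used genotype labels and not tags, and tags as a replicate block were an alternative. Over 156 pairs of libraries of 1 group chi-square per degree of freedom was 3.28 or more, so no library was taken as a repeat of another.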

Additional observations from a re-analysis of the deposited data

Results flagged for a closer look

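Within groups of 9 libraries, 112 sets of values of the described members were checked for a single library that stood apart by the gap to its nearest neighbour over the group's range. This picked out 12 values. A rate of 1 in 20 would give about 5.6, but that rate holds for independent values with a normal spread. Ranks 35 and 82 were described for their wide spread, and members can stand apart together in 1 library. The 2 counts therefore cannot be set against each other. No explanation was tested.

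The inshore control of BLY5 at 31 days was apart in 4 members: rank 5 with 7228 CPM (others 3088 to 5039), rank 6 with 9172 CPM (others 2835 to 4986), rank 7 with 5123 CPM (others 3473 to 4274) and rank 65 with 798 CPM (others 932 to 1062). This library also had the highest members' share of the 48, at 18.02%. Rank 7 was likewise high in the inshore control of BLY6 at 5 days, with 5438 CPM against 3303 to 4362 in the others.

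Rank 35 was apart in 3 groups, with 32704 CPM in heated B2 at 31 days (others 5.11 to 11675), 465.5 CPM in the control of D5 at 31 days (others 12.0 to 146) and 263 CPM in heated BLY6 at 5 days (others 11.7 to 120). Rank 82 was apart in heated A2 at 31 days, with 20338 CPM (others 6.32 to 169), and in heated B4 at 5 days, with 181 CPM (others 9.77 to 46.9). Rank 28 reached 916 CPM in the control of D5 at 31 days (others 417 to 658), and rank 57 reached 1203 CPM in heated D3 at 5 days (others 617 to 871).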

How the results depend on the processing

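The members' share of 15.5% was 10.98% with 50 members and 21.4% with 200, and 15.4% to 15.6% under other rankings, which kept 96 to 99 of the 100. Every feature is its own gene cluster here, so summing isoforms changed nothing. Inshore at 5 days the count of 16 called members was 10 with no genotype term (no replicate block), 3 with counts summed per genotype, and 2 to 19 with libraries or labels left out, with 2 without In3 and 10 without In1. Offshore at 5 days the count of 1 was 7 with DESeq2, 2 with RLE size factors, 3 with no filter, 0 with library totals, with colony tags as a replicate block, with no genotype term and with summed counts, and 0 to 1 with samples left out. It was 0 without the heated or the control C2 or C5, and without In1, In2 or In4, and the 1 call without C1 of either arm or without In3 was of a member that was lower. Inshore at 31 days the count of 4 was 13 with DESeq2, 1 with no genotype term, 0 with the tag block or summed counts, and 0 to 6 with samples left out, with 1 without In1, 2 without In2 or In4 and 0 without In3. Offshore at 31 days the count of 0 was 2 with DESeq2, 1 with no filter, 1 without the 3 libraries that stood apart, and 0 to 2 with samples left out. In the time comparisons the tag block gave 1 call in each habitat's heated fragments, DESeq2 gave 1 in inshore heated and offshore control fragments, and in the habitat comparisons DESeq2 gave 1 in heated and 1 in control fragments at 5 days. DESeq2 without the 3 libraries, chosen after seeing the data, called 16 members inshore and 3 offshore for heat at 31 days, and 2 in inshore heated and 8 in inshore control fragments between times. The share of all features called in that fit is not given here, so these counts cannot be read as particular to the members. The replicate block changed no other call count by over 1.5 times. The causes were not tested. Of the called members described, rank 11 inshore at 5 days was called in 17 of 17 alternatives (adjusted p up to 0.0474), ranks 13 and 37 in 16, ranks 67 and 57 in 14 and rank 98 in 13. At 31 days rank 48 was called in 16 of 19, rank 4 in 14, rank 88 in 12 and rank 41 in 7. Rank 11 offshore was called in 3 of 17, and no direction was reversed. Scaling by library totals moved the median change of all features to 0.22 from 0.01 for heat offshore at 31 days, to 0.29 from 0.00 for the habitat difference there and to -0.14 from 0.02 for offshore against inshore controls at 31 days. The lowest mean count of a member was 4497.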
